A study of Mus musculus with 6 samples.

Results

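The genes described here encode integrins, tensins and the proteins of focal adhesions. They were chosen by name and function, with earlier results of these data known. They comprise 13 integrin alpha chains, 8 integrin beta chains and 7 talin, kindlin and integrin-linked kinase complex proteins. The others are 4 tensins, 5 signalling proteins and 8 actin linkers or LIM domain proteins. Of these 45 genes, 44 were among the 15973 protein-coding genes of the authors' comparison, and 42 had enough counts to be tested. They were measured by poly(A) RNA-seq in 6 libraries from 4T1-T, a clonal sub-line of the mouse mammary carcinoma line 4T1 that lines vessel-like channels with tumour cells in vivo, a behaviour called vasculogenic mimicry. Cells of this 1 clone were starved of serum, given acetylated LDL (acLDL) carrying a green Alexa dye at 10 µg/mL for 4 h, washed 8 times, returned to complete medium for 1 h and sorted by flow cytometry into the brightest 25% (acLDL-high, 3 libraries) and the dimmest 25% (acLDL-low, 3 libraries). Uptake of acLDL is a property of endothelial cells and macrophages, and it served here as the marker of the capacity for vasculogenic mimicry. Both populations carried the same dye and had been through the same starvation, and the series' design text states that the experiment was done on 3 occasions. The high and low libraries of 1 replicate number were taken as a pair from 1 occasion, which the labels do not spell out. No genotype, drug or animal differed between the groups.

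Integrins are receptors made of 1 alpha and 1 beta chain that span the membrane and bind matrix proteins or the adhesion molecules of other cells. Talins and kindlins bind the cytoplasmic tail of the beta chain and switch the receptor to its active state, after which vinculin, tensins, the complex of ILK with parvin and PINCH, and actin-binding proteins couple it to the cytoskeleton. Focal adhesion kinase, Src, p130Cas and paxillin assemble at the same sites and relay signals from them. In mammary epithelium the laminin receptors built from Itga3 or Itga6 anchor cells to the basement membrane, and other pairs bind collagens, fibronectin and proteins with the RGD tripeptide.

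In acLDL-high cells 5 of the 42 genes tested were higher and none was lower (edgeR quasi-likelihood F test blocked on replicate number, adjusted p under 0.05 over all 12572 genes tested). The 5 were the tensin gene Tns1, the integrin beta chain genes Itgb3, Itgb6 and Itgb2, and Enah, the gene of an actin regulator. The higher genes made up 11.9% of those tested, against 3.43% of all genes, and 1.32% of all genes were lower, 4.75% in either direction. Before adjustment, 12 of the 42 were higher and 4 were lower at p under 0.05, against 1338 and 1097 of the 12572 genes (19.4% in either direction). DESeq2 called 7 of 44 higher, without Itgb6 but with Itga2, Itgav and Vcl, and none lower. Over all 15973 genes DESeq2 called 365 higher and 103 lower. In the edgeR fit over all genes 431 were called higher and 166 lower, a split that became 375 and 271 under upper quartile scaling. In bulk RNA of a sorted population, a change in the share of cells that express a gene and a change in the RNA of each cell cannot be told apart.

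**Figure D1:**
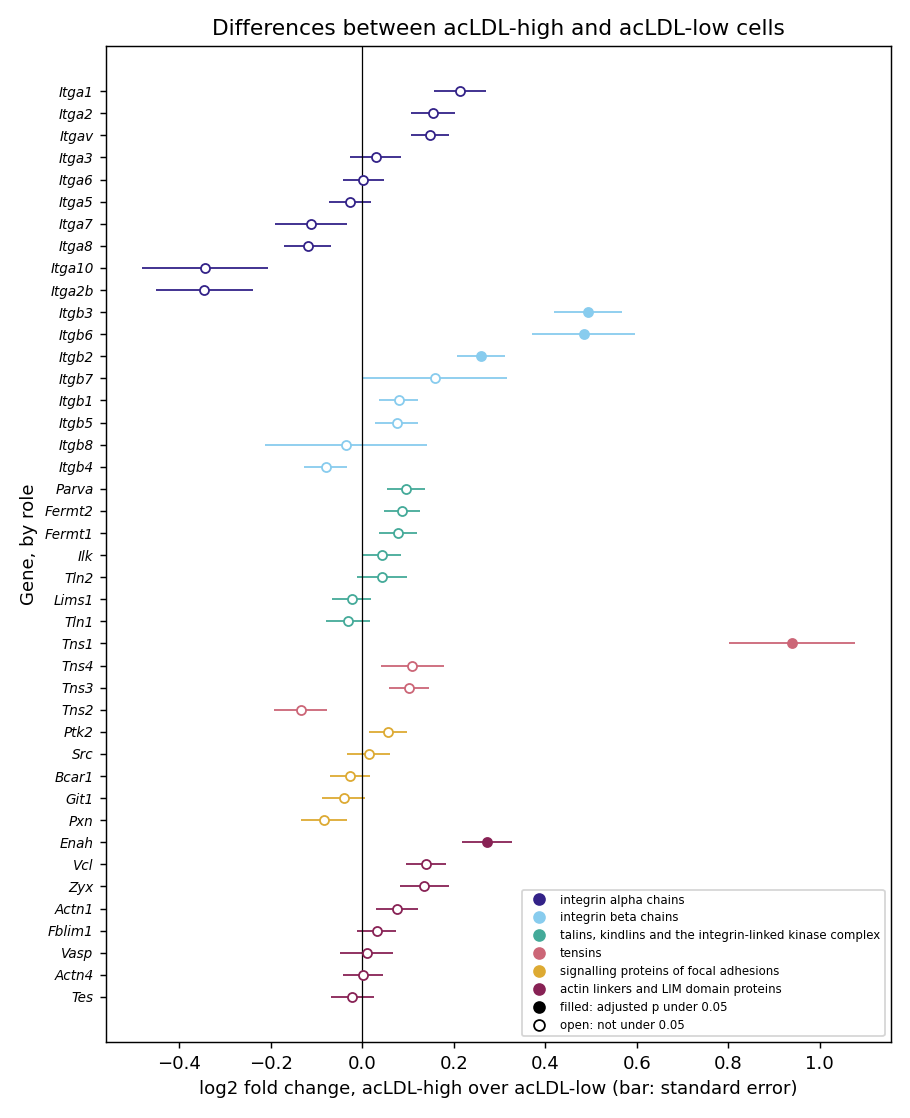
Log2 fold change of acLDL-high over acLDL-low cells (x axis) for each gene tested, grouped by role (y axis), with bars of 1 standard error from the edgeR fit and filled points for an adjusted p under 0.05. The 5 filled points all lie to the right of 0, with Tns1 farthest at 0.94, and 34 of the other 37 genes lie within 0.2 of 0.

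The levels of the integrin chains were very unequal in these cells. On the RPKM scale, which divides CPM (counts scaled to the depth of the library) by the length of the exons in kilobases, the alpha chains summed to between 269 and 442 per library and the beta chains to between 220 and 317. Itga3 made up 56.2% to 64.2% of the summed alpha chain RPKM, followed by Itga2 with 12.6% to 18.2% and Itga6 with 9.63% to 12.3%. Itgb1, the partner of most alpha chains, made up 61.7% to 76.2% of the beta chain sum, and Itgb4, which pairs with Itga6 in hemidesmosomes, made up 12.9% to 24.0%. By mean RPKM over the 6 libraries the order of all chains was Itga3 (229), Itgb1 (187), Itga2 (57.9), Itgb4 (50.5), Itga6 (41.6), Itgb5 (23.8), Itga5 (19.8), Itgav (19.7), Itgb2 (9.88), Itga8 (6.06), Itgb3 (2.66), Itga1 (2.18), Itga7 (2.05), Itgb7 (1.42), Itga2b (0.826), Itgb6 (0.578), Itga10 (0.435) and Itgb8 (0.130). Neighbours in this order overlapped in their ranges over the libraries, except at 3 steps: from Itgb1 to Itga2, from Itga6 to Itgb5 and from Itga10 to Itgb8. Of the beta chains higher in acLDL-high cells, Itgb2 made up 1.97% to 5.74% of the beta chain RPKM, Itgb3 0.574% to 1.60% and Itgb6 0.0945% to 0.348%. Itga4 was listed at 0 counts in all 6 libraries, which allows up to 0.0429 CPM in the shallowest of them if counts are independent. Itga9 and Itga11 reached at most 7 counts each, and these 3 alpha chains were not tested.

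**Figure D2:**
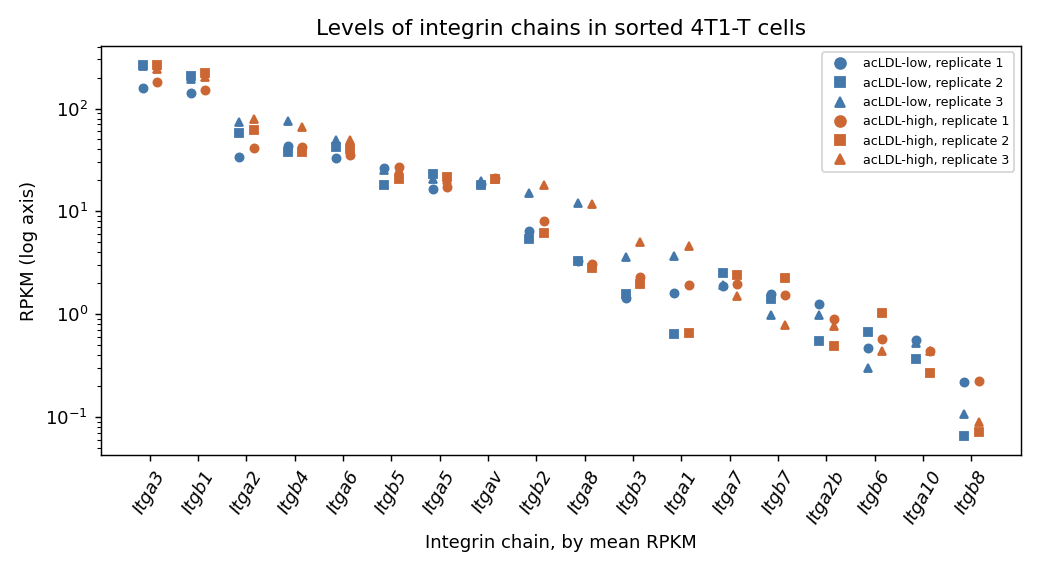
RPKM on a log axis for each integrin chain tested in the 6 libraries, in order of mean level, with acLDL-low and acLDL-high libraries in different colours. Levels run from about 229 RPKM for Itga3 to 0.130 for Itgb8, and for every chain but Itgav the points of the 2 populations overlap.

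None of the 10 alpha chains tested was called between the populations, with 5 fold changes above 0 and 5 below, from -0.35 to 0.21 on the log2 scale. Itga3, which binds laminins, stood at 159, 268 and 260 RPKM in acLDL-low replicates 1, 2 and 3 and at 183, 266 and 241 in acLDL-high. The populations overlapped, and only replicate 1 was higher in acLDL-high cells (log2 fold change 0.03, SE 0.06, adjusted p = 0.837). Itga6, the alpha chain of hemidesmosomes and of another laminin receptor, was at 33.2, 42.3 and 49.5 RPKM in acLDL-low and at 35.1, 40.2 and 49.6 in acLDL-high cells. Its fold change was 0.00 with SE 0.04 (adjusted p = 0.983), so that the pairs lay much closer together than the replicates did.

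The collagen receptor chains Itga2 and Itga1 each lay above 0 in all 3 pairs without passing the threshold. Itga2 was at 33.9, 58.5 and 73.4 RPKM in acLDL-low and at 41.1, 62.5 and 78.3 in acLDL-high libraries, a fold change of 0.16 (SE 0.05, adjusted p = 0.0919). Itga1 was much less abundant, at 1.62, 0.645 and 3.67 RPKM in acLDL-low and at 1.90, 0.662 and 4.58 in acLDL-high libraries. Its fold change was 0.21 (SE 0.06, adjusted p = 0.0513), and part of its exons overlap another annotated gene on the same strand. Both chains passed the threshold under several alternatives, Itga1 in 4 of 10 and Itga2 in 3 of 10, among them the fit without replicate 2. Itgav, the alpha chain that pairs with Itgb1, Itgb3, Itgb5, Itgb6 and Itgb8 in receptors for RGD-containing ligands, was at 18.6, 17.9 and 19.7 RPKM in acLDL-low and at 20.9, 20.5 and 20.8 in acLDL-high libraries. Here the populations did not overlap, although the fold change was only 0.15 (SE 0.04, adjusted p = 0.0668). Itga5, the fibronectin receptor chain, differed by -0.03 at a mean of 19.8 RPKM.

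On the other side of 0, Itga2b, the alpha chain of the platelet fibrinogen receptor, was at 1.25, 0.545 and 0.993 RPKM in acLDL-low and at 0.906, 0.492 and 0.766 in acLDL-high cells. Each pair was lower in acLDL-high, with overlap between the populations and a fold change of -0.35 (SE 0.11, adjusted p = 0.0919). Itga10 and Itga8 were also below 0 in all 3 pairs, with fold changes of -0.34 and -0.12, and Itga7 differed by -0.11. The exons of Itga10 also overlap another gene on the same strand. The platelet gene list (6 genes, such as Pf4 and Gp9) summed to between 0.20 and 0.780 CPM in acLDL-low and to between 0.292 and 0.804 in acLDL-high libraries, with 1 gene at 0 in all libraries and none of the 2 tested called.

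The beta chains held 3 of the 5 genes called, and 6 of the 8 fold changes were above 0 (median 0.12, against 0.00 over all genes). Itgb3 (ENSMUSG00000020689, chr11:104608000-104670476, plus strand, GRCm38) encodes the partner of Itgav in the vitronectin receptor and of Itga2b in platelets. Its level was 8.41, 9.27 and 21.4 CPM in acLDL-low replicates 1, 2 and 3 and 13.5, 11.5 and 30.05 CPM in acLDL-high. Replicate 3 was highest in both populations, and the low cells of replicate 3 exceeded the high cells of the other replicates, so the groups overlapped while every pair rose. The means were 13.0 ± 7.28 CPM in acLDL-low and 18.3 ± 10.2 CPM in acLDL-high cells (SD, n = 3 each), and within pairs the differences were 0.68, 0.31 and 0.49 on the log2 scale. The fitted log2 fold change was 0.49 with SE 0.08 (adjusted p = 0.00268), which is 1.41-fold.

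Itgb6 (ENSMUSG00000026971, chr2:60598292-60722643, minus strand) encodes the epithelial partner of Itgav that binds latent TGF-beta. It was at 3.36, 4.74 and 2.13 CPM in acLDL-low and at 4.06, 7.24 and 3.13 CPM in acLDL-high libraries, from 149 to 521 counts. Here replicate 2 was highest in both populations and replicate 3 lowest, and the groups overlapped. The means were 3.41 ± 1.31 and 4.81 ± 2.16 CPM (SD, n = 3 each), and the fold change was 0.48 with SE 0.11 (adjusted p = 0.0294). Among the 5 genes called it was the one that held under the fewest alternatives, 6 of 10, and DESeq2 gave it an adjusted p of 0.0858.

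Itgb2 (ENSMUSG00000000290, chr10:77530252-77565708, plus strand) encodes the beta chain of leukocyte integrins. It stood at 19.7, 16.5 and 46.0 CPM in acLDL-low and at 24.5, 18.7 and 55.6 CPM in acLDL-high libraries. As with Itgb3, replicate 3 was highest in both populations and the groups overlapped, with means of 27.4 ± 16.2 and 32.9 ± 19.8 CPM (SD, n = 3 each). The pairs differed by 0.32, 0.18 and 0.27, and the fold change was 0.26 with SE 0.05 (adjusted p = 0.0136). The alpha chains that pair with Itgb2 on leukocytes were almost undetected: the highest count in any library was 6 for Itgal, 2 for Itgam, 4 for Itgax and 0 for Itgad, a list of genes looked up after the values of Itgb2 were seen. Macrophage markers in the same libraries summed to between 19.3 and 21.7 CPM in acLDL-low and to between 20.1 and 24.4 in acLDL-high. Of these 10 markers Adgre1 and Tyrobp were at 0 in every library. Ptprc, the common leukocyte antigen, reached at most 16 counts, Csf1r at most 4 and Lyz2 at most 2. These low counts made up little of the sums, which came mostly from among Cd68, Aif1, Cd14, Fcgr1 and Mrc1. The markers at low counts thus do not stand for the whole list. The 5 markers tested had fold changes from -0.28 to 0.83 with a median of 0.30, and 4 were above 0. In the edgeR fit 2 had an unadjusted p under 0.05, and only Cd14 was called (log2 fold change 0.32, adjusted p = 0.0246).

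Of the remaining beta chains none was called. Itgb1 was at 141, 209 and 195 RPKM in acLDL-low and at 151, 223 and 201 in acLDL-high libraries, higher by 0.10, 0.09 and 0.04 within pairs (log2 fold change 0.08, SE 0.04, adjusted p = 0.337). Itgb4 was at 42.8, 38.2 and 75.9 RPKM in acLDL-low and at 42.0, 37.8 and 66.1 in acLDL-high libraries, and each pair lay below 0 (log2 fold change -0.08, SE 0.05, adjusted p = 0.397). The most abundant chains of the laminin and collagen receptors thus differed by at most 0.16 in the fit. Itgb5, another partner of Itgav, differed by 0.08, Itgb7 by 0.16 and Itgb8 by -0.03. The pairs of Itgb7 went in both directions, at -0.01, 0.68 and -0.31, and Itgae, an alpha chain that pairs with it on lymphocytes, reached at most 13 counts.

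Tns1 (ENSMUSG00000055322, chr1:73910231-74124449, minus strand) had the largest fold change of all 42 genes. It encodes tensin 1, which binds the tails of beta chains at fibrillar adhesions and links them to actin. The level was 4.27, 1.60 and 1.2 CPM in acLDL-low replicates 1, 2 and 3 and 6.65, 3.64 and 2.62 CPM in acLDL-high. Replicate 1 was highest in both populations, and its low cells exceeded the high cells of replicates 2 and 3, so the groups overlapped although every pair rose by 0.64, 1.18 and 1.11. The means were 2.36 ± 1.67 and 4.30 ± 2.10 CPM (SD, n = 3 each), and the fold change was 0.94 with SE 0.14, or 1.92-fold (adjusted p = 0.00209). These levels are low, from 84 to 529 counts per library.

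The 4 tensins differed in both level and direction. In RPKM, Tns4, which lacks the actin-binding part of the other tensins, made up 48.6% to 82.9% of the family, Tns3 10.8% to 35.1%, Tns2 6.28% to 16.1% and Tns1 0.0307% to 0.186%. Tns3 was at 287, 439 and 310 CPM in acLDL-low and at 320, 481 and 314 CPM in acLDL-high libraries. All 3 pairs were above 0, yet the difference was 0.10 with SE 0.04 (adjusted p = 0.226). Tns2 was at 148, 103 and 109 CPM in acLDL-low and at 131, 107 and 89.0 CPM in acLDL-high libraries, lower in replicates 1 and 3 and slightly higher in replicate 2 (log2 fold change -0.13, SE 0.06, adjusted p = 0.226). Tns4 had the widest range between replicates of the tensins, at 791, 340 and 1015 CPM in acLDL-low and 997, 308 and 1114 CPM in acLDL-high libraries. Its pairs differed by 0.33, -0.14 and 0.13, with a fold change of 0.11 (SE 0.07, adjusted p = 0.424). Without replicate 2 both Tns2 and Tns4 passed the threshold, Tns2 at -0.24 (adjusted p = 0.00107) and Tns4 at 0.23 (adjusted p = 0.00068). Neither passed without replicate 1 or without replicate 3, where Tns2 was at -0.11 and -0.05 and Tns4 at -0.002 and 0.10.

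Enah (ENSMUSG00000022995, chr1:181896384-182019990, minus strand), which encodes the Mena protein that promotes growth of actin filaments at adhesions and in protrusions, was the fifth gene called. It stood at 29.6, 19.0 and 22.5 CPM in acLDL-low and at 37.7, 21.9 and 26.9 CPM in acLDL-high libraries. Replicate 1 was highest and replicate 2 lowest in both populations, which overlapped. The means were 23.7 ± 5.41 and 28.8 ± 8.10 CPM (SD, n = 3 each), the pairs differed by 0.35, 0.20 and 0.26, and the fold change was 0.27 with SE 0.05 (adjusted p = 0.0128). Its relative Vasp, which acts on the same filaments, differed by 0.01.

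**Figure D3:**
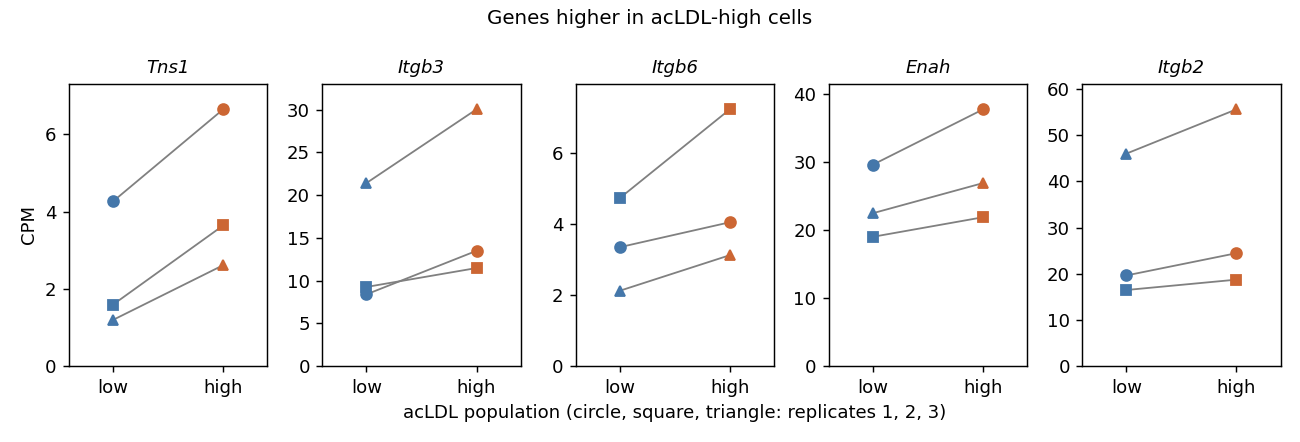
CPM of the 5 genes called higher in acLDL-low and acLDL-high libraries, 1 panel a gene, with a line joining the libraries of each replicate number and an axis from 0. All 15 lines rise, and in each panel the highest low library lies above the lowest high library.

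None of the 5 calls held without the pairing of the libraries or without replicate 3. Of the 42 genes, 4 were called higher without replicate 1, 8 without replicate 2 and 0 without replicate 3. Over all genes 437, 602 and 112 were called higher in these fits and 0 without the block, against 431 in the full fit. Without the replicate number as a block each of the 5 had an adjusted p of 1, and without replicate 3 the adjusted p ranged from 0.0517 for Tns1 to 0.201 for Itgb6, with fold changes between 0.25 and 0.87. Tns1, Itgb3 and Itgb2 kept their call under the other 8 of 10 alternatives, Enah under 7 and Itgb6 under 6. Enah also missed the threshold without replicate 1 (0.23, adjusted p = 0.0561), and Itgb6 without replicate 2 (0.40, adjusted p = 0.105) and with DESeq2.

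The sequence before the start sites was read for 3 motifs of transcription factors known to act on adhesion and actin genes. RefSeq promoters on GRCm38.p6 were matched for 35 genes with 43 starts, and the 250 bases before each start were searched on both strands for the letters TGANTCA (AP-1), GGAATG (TEAD) and the SRF CArG box. The AP-1 letters were found before 3 of the 43 starts (Actn4, Fblim1 and Zyx) and before 6.75% of all 32851 promoters. The TEAD letters were found before 5 (Actn4, Fblim1, Itga10, Itgb1 and Vcl) and before 12.6% of all, and the CArG box before 3 (Fermt2, Vcl and 1 start of Itgb6) and before 1.47% of all. Of the genes called, Tns1, Itgb6 and Enah had an entry, and among their 4 windows only that of the inner start of Itgb6 held a match, a CArG box from 50 to 41 bases before the start. The window of Tns1, shown because this gene had the largest fold change, is chr1:74124549-74124798 on the minus strand and has 74.4% G and C. The windows of Itgb6, shown because its starts differ in the match, are chr2:60722604-60722853 (outer start, 52% G and C) and chr2:60673694-60673943 (inner start, 38%), both on the minus strand, against a median of 52.4% over all promoters. They are written 5′ to 3′ with the CArG box in capitals.
Tns1: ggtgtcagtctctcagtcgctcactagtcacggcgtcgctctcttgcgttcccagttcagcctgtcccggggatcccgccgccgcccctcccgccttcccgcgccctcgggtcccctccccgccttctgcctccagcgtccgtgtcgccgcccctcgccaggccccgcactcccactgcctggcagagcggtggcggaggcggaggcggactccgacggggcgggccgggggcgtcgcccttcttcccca
Itgb6, outer start: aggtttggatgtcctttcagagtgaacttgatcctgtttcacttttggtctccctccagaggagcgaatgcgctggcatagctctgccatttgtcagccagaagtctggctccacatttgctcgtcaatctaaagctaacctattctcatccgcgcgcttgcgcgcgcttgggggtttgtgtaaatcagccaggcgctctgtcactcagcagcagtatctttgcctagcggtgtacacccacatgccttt
Itgb6, inner start: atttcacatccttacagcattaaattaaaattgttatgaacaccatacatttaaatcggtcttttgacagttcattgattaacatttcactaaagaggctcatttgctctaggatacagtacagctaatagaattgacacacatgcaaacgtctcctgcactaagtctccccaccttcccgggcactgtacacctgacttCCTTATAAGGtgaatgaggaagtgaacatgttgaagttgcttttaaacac
A gene-level count does not tell which start of Itgb6 was used.

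The remaining actin linkers showed small differences. Vcl, the gene of vinculin, was at 39.4, 45.3 and 40.8 RPKM in acLDL-low and at 45.7, 48.8 and 43.6 in acLDL-high libraries, higher in each pair (log2 fold change 0.14, SE 0.04, adjusted p = 0.0932). Zyx, the gene of zyxin, a LIM domain protein that gathers at adhesions under tension, was at 81.4, 70.5 and 85.6 RPKM in acLDL-low and at 99.9, 70.7 and 92.1 in acLDL-high libraries, with a fold change of 0.14 (SE 0.05, adjusted p = 0.183). Replicate 2 of Zyx barely differed, and without it the fold change was 0.20 (adjusted p = 0.00551). Without replicate 1 it was 0.06 and without replicate 3 it was 0.15, and neither passed the threshold. The alpha-actinins, which crosslink actin filaments, differed by 0.08 for Actn1 and 0.00 for Actn4, and the LIM domain genes Tes and Fblim1 by -0.02 and 0.03.

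None of the 7 talin, kindlin and integrin-linked kinase complex genes was called. Their fold changes ran from -0.03 to 0.10 with SE of at most 0.05, and the adjusted p from 0.215 to 0.824. Fermt2, the gene of kindlin-2, had the smallest spread between replicates of all, at 20.8, 20.6 and 21.2 RPKM in acLDL-low and 21.9, 22.2 and 22.4 in acLDL-high libraries. Its populations did not overlap, with a fold change of 0.09 (SE 0.04, adjusted p = 0.259). Fermt1, the epithelial kindlin, differed by 0.08, Tln1 and Tln2, the talins, by -0.03 and 0.04, Ilk by 0.04, Parva, its partner alpha-parvin, by 0.10, and Lims1, the gene of PINCH-1, by -0.02.

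The signalling genes had the same small range. Ptk2, the gene of focal adhesion kinase, differed by 0.06, Src by 0.01, Bcar1, the gene of p130Cas, by -0.03, Pxn, the gene of paxillin, by -0.08, and Git1, a scaffold that binds paxillin, by -0.04. The lowest adjusted p of these 5 was 0.398, and their mean levels lay between 29.3 and 37.9 RPKM.

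Direction over the 3 pairs was also counted. Of all genes tested 40.4% went in 1 direction in the 3 pairs, 21% higher and 19.4% lower. Among the 42 genes 18 (42.9%) were higher in each pair and 4 (9.52%), Itga2b, Itga8, Itga10 and Itgb4, were lower in each. The 18 included all 5 genes called, and also Itga1, Itga2, Itgav, Itgb1, Itgb5, Fermt1, Fermt2, Ilk, Parva, Tns3, Ptk2, Vcl and Zyx. The sizes were small: the median fold change of the 42 genes was 0.04 and the median size 0.08, against 0.00 and 0.07 over all genes. The populations did not overlap for 2 genes, Itgav and Fermt2 (4.76%, against 2.86% of all genes), neither of which was called.

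For most of these genes the 3 replicate numbers differed more than the populations did. The mean log2 CPM of the high and low libraries was taken for each replicate number, and its range over the 3 numbers had a median of 0.55 for the 42 genes and 0.45 for all genes tested. This range exceeded the size of the fold change in 40 of the 42 genes (95.2%, against 95.4% of all genes), the exceptions being Itgav and Fermt2. It was over 1 on the log2 scale for 11 genes (26.2%, against 17.4% of all genes). The widest range was that of Itga1, 2.65, followed by Itga8 with 1.97, Tns4 with 1.72, Itgb8 with 1.67, Tns1 with 1.57 and Itgb2 with 1.52. The replicate numbers did not rank alike for every gene: replicate 1 was highest for 11 genes, replicate 2 for 16 and replicate 3 for 15. Differences between replicate numbers were not tested.

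**Figure D4:**
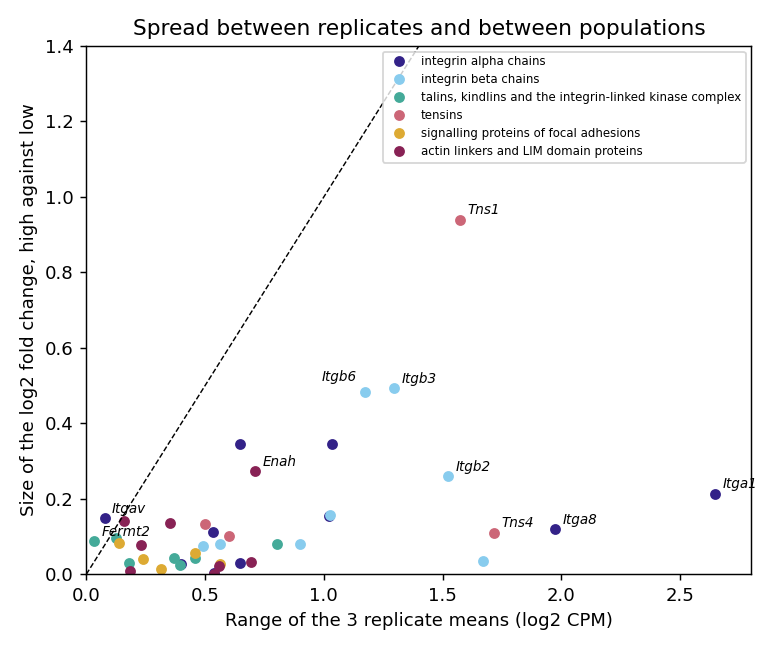
Size of the log2 fold change between populations (y axis) against the range of the 3 replicate means in log2 CPM (x axis) for the 42 genes, coloured by role, with a dashed line where they are equal. All genes but Itgav and Fermt2 lie under the line, and Tns1 is at 1.57 on the x axis and 0.94 on the y axis.

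Beyond these genes, a list of 66 other adhesome genes, which encode further proteins of integrin adhesions, was counted in the same fit. Of the 64 tested, 2 were higher (3.12%, against 3.43% of all genes) and none was lower in edgeR. At an unadjusted p under 0.05 there were 12 higher and 3 lower, against 1338 and 1097 of all 12572 genes. DESeq2 called 3 of 65 higher and none lower, against 365 and 103 of 15973 genes. Of the 64, 17 were higher in all 3 pairs, against 21% of all genes. The called genes were Nedd9, a scaffold related to Bcar1, with 42.7 ± 5.0 CPM in acLDL-low and 50.3 ± 5.67 CPM in acLDL-high cells (log2 fold change 0.23, SE 0.04, adjusted p = 0.0102), and Csrp1, a LIM domain protein of actin bundles, with 111 ± 23.0 and 129 ± 25.8 CPM (log2 fold change 0.22, SE 0.04, adjusted p = 0.0112). SDs are over 3 libraries each, and Nedd9 rose by 0.21, 0.24 and 0.25 in the 3 pairs. The median fold change of the list was 0.03, and the number called higher was 5 without replicate 1, 5 without replicate 2 and 0 without replicate 3 or without the block.

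Of 33 genes that encode ligands of integrins, 28 were tested and 8 were higher (28.6%, against 3.43% of all genes), while none was lower in edgeR or DESeq2, also at an unadjusted p under 0.05. DESeq2 called 5 of 31 higher, against 365 of 15973 genes, and the edgeR count was 4 without replicate 3 and 0 without the block. The median fold change was 0.14 and 26 of the 28 were above 0. Ccn2 and Ccn1, matricellular proteins that bind Itgav receptors among others, rose by 0.62 (SE 0.05, adjusted p = 4.24e-05) and 0.44 (SE 0.09, adjusted p = 0.0120). Ccn2 stood at 76.0, 149 and 22.1 CPM in acLDL-low and at 107, 229 and 38.1 CPM in acLDL-high libraries, so that replicate 2 was highest and replicate 3 lowest in both populations. Thbs1, the gene of thrombospondin 1, was at 779, 465 and 456 CPM in acLDL-low and at 1075, 874 and 724 CPM in acLDL-high libraries, a fold change of 0.68 (SE 0.07, adjusted p = 0.000122). Only the lowest high library of Thbs1, that of replicate 3, lay below a low library, that of replicate 1. Vcam1, which binds the receptor of Itga4, rose by 0.39 (adjusted p = 0.000832), although Itga4 itself was at 0, and Npnt, the nephronectin that binds Itga8 receptors, rose by 0.25 (adjusted p = 0.00524). Spp1, the osteopontin gene, rose by 0.33 (adjusted p = 0.0312), with 0.46, 0.01 and 0.52 in the pairs, and the fibronectin gene Fn1 by 0.22 (adjusted p = 0.0422). Postn, the periostin gene, rose by 0.88 (SE 0.22, adjusted p = 0.0394) at 0.880 ± 0.361 CPM in acLDL-low and 1.73 ± 1.28 CPM in acLDL-high cells. Exons of Thbs1, Ccn2, Vcam1, Fn1, Spp1 and Nedd9 overlap other annotated genes, and so did those of 13 of the 42 genes above, none of them among the 5 called.

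Other cell types and the cell cycle were read from marker lists in the same libraries. The epithelial markers (8 genes, such as Epcam and Krt8) summed to between 3330 and 5702 CPM in acLDL-low and to between 3750 and 6124 in acLDL-high libraries, and 1, Cldn4, was called higher. Endothelial markers summed to between 0.607 and 0.753 CPM in acLDL-low and to between 0.339 and 0.624 in acLDL-high libraries, with Emcn, Cldn5 and Erg at 0 in all 6 and none of 2 tested called. The 8 fibroblast markers summed to between 28.2 and 41.1 CPM in acLDL-low and to between 28.9 and 43.5 in acLDL-high libraries. Lum and Thy1 were at 0, so these sums came from among Pdgfra, Pdgfrb, Dcn, Col6a3, Fbln1 and Mfap5. Of the fibroblast markers 2 were tested, with fold changes of 0.08 and 0.11, and neither was called. Of 15 genes of the G2 and M phases 10 were higher in acLDL-high cells (66.7%, against 3.43% of all genes, with a median fold change of 0.33), and their sum ran from 2096 to 2610 CPM in acLDL-low and from 2691 to 3415 in acLDL-high libraries. The part of these differences in the changes of integrin, tensin and adhesion genes was not tested. Total counts per library lay between 70263372 and 94216786. At that depth a count of 0 allows up to 0.0323 to 0.0429 CPM, for counting error only and with counts taken as independent. The limit is higher if both mates of a pair were counted.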

How the data were processed

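Whole-number read counts per gene were deposited by the authors for 53379 gene IDs in 3 acLDL-low and 3 acLDL-high libraries. Per the submitters' processing notes, reads were aligned to mm10 with STAR 2.5.2a and counted with featureCounts 1.4.3-p1, and DESeq2 1.20.0 was run. Whether the counting used strand is not given in the sources used here, so overlapping genes cannot be told apart. A count of 2 was more frequent in the table (13060 entries) than a count of 1 (4541), so both mates of a pair appear to have been counted and the totals may exceed the number of fragments. The authors' own table of the comparison was used only for its 15973 protein-coding genes; its fold changes and p-values were not used.

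Protein-coding counts were tested with edgeR 4.0.16 (R 4.3.3, limma 3.58.1; glmQLFit and glmQLFTest, TMM scaling, filterByExpr) with the replicate number as a block, as the study's methods include replicate information, and with Benjamini-Hochberg adjustment over all 12572 genes tested. The SE of a log2 fold change was its size divided by the root of F. Fold changes and pair differences are on the log2 scale, and pair differences used a prior count of 2. RPKM is TMM-scaled CPM per kilobase of GENCODE exon, with positions on GRCm38. The series' design text gives 3 occasions, without tying them to the replicate numbers. The numbers were taken as pairs because deviations from the population means correlated at 0.795, 0.846 and 0.799 for same-numbered libraries. For other libraries the correlations were -0.557 to -0.0882. Deviations sum to 0 within each population, so positive values for same-numbered libraries force negative ones among the others. The negative values thus add no support of their own. No libraries were duplicates, and p-values measure the spread over 3 pairs of libraries of 1 cell line. Scripts were tested on simulated data.

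The genes and lists were chosen with earlier results of these data known. Values in every library are given for each gene called, each tensin and the 5 most abundant integrin chains, with SE and adjusted p for these and for genes called under any alternative; of the adhesome and ligand lists, at most 8 called genes are named. Library values of other genes, and the alpha chains that pair with Itgb2 or Itgb7, were chosen after values were seen. Alternatives were DESeq2 1.42.0, DESeq2 size factors, upper quartile scaling, no filter, all genes of the table, a minimum of 10 counts per library, no block, and leaving out each replicate. Promoter sequences are from RefSeq (GRCm38.p6), and protein sequences were not used here.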

Additional observations from a re-analysis of the deposited data

How the results depend on the processing

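The direction of the difference was the same as reported in 400 of 420 values of the 42 genes over 10 alternatives, and no called value changed sign. The number of genes called higher was 5; it was 0 without the replicate block and 9 with no filter on low counts, and ranged from 0 (without replicate 3) to 8 (without replicate 2) when each replicate was left out. The number called lower was 0; it was 1 with no filter and ranged from 0 to 2 over the replicates left out. Over all genes 431 were higher and 166 lower: without the block the counts were 0 and 0, with 35 and 10 at an unadjusted p under 0.05, and with no filter 669 and 263. Leaving out a replicate gave 112 to 602 higher and 14 to 267 lower, the fewest without replicate 3. The lower count was 271 under upper quartile scaling and 103 with DESeq2. Other adhesome genes called higher numbered 2, with 0 without the block, 5 with no filter and 0 to 5 over the replicates left out; those called lower numbered 0, with 1 under upper quartile scaling, 1 with no filter and 0 to 2 over the replicates left out. Integrin ligands called higher numbered 8, with 0 without the block, 5 with DESeq2 and 4 to 8 over the replicates left out; 0 were lower, and 0 to 1 over the replicates left out. The cause of these changes was not tested. A fit without the block tests the populations against the spread between replicate numbers. Of the 37 genes not called, 8 passed in at least 1 alternative: Itga1, Itga2, Itga2b, Itgav, Vcl, Zyx, Tns2 and Tns4. No scaling moved the median of all genes by over 0.1. Genes of few counts, such as Tns1 and Itgb6, are the least precise of those called, with SE of 0.14 and 0.11.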
